A study of Mus musculus with 24 samples.

Results

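Livers of mice on a prolonged Western diet were compared between animals labelled Mrs2 knockout (KO) and animals labelled wild type (WT), with 3 mice in each group. All genes with a mean of at least 0.5 FPKM (fragments scaled to gene length and library size) over the 12 livers of the series were compared, which made 14019 of the 54532 genes listed. Per the labels, the livers labelled KO came from Mrs2 knockout mice fed Western diet, an obesogenic feed, for 52 weeks from 13 weeks of age, and the livers labelled WT from wild-type mice on the same feed over the same weeks. Diet, duration and tissue were shared, the labels give neither strain, sex nor the way the allele was made, and 50 mg of powder of the whole frozen liver went into each RNA preparation. The study also fed mice of both genotypes chow and profiled inguinal fat, 24 libraries in all. Its 6 chow livers, 3 KO and 3 WT, entered the same fit and served to test whether the difference between the labels depended on diet. Close to the minimum level, Gm27942 (0.5003 FPKM) was the lowest included, and Fgf2 (0.49995 FPKM) and Nexn (0.4999 FPKM) the highest left out.

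Mrs2 is the channel through which magnesium crosses the inner membrane of mitochondria into the matrix. Inside, magnesium binds ATP and acts on enzymes of the matrix. In liver, prolonged obesogenic feeding is known to fill hepatocytes with fat, to draw in macrophages that take up lipid, and to activate stellate cells, which lay down collagen. A whole-liver RNA sample mixes all of these cells, and in such a sample fewer cells of a type and less RNA per cell cannot be told apart.

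The 6 Western diet libraries held 14.7 to 16.6 M reads, recovered as whole numbers from the deposited values, and all 12 livers 14.7 to 19.5 M. The deposited FPKM carry a scaling factor per library: divided by the reads, the library size they use came to 0.798 to 0.828 in livers labelled KO and 0.980 to 1.07 in livers labelled WT, and to 0.769 to 0.854 on chow. Read for read, an FPKM is therefore lower in livers labelled WT, and dividing by total reads instead moved the median log2 fold change of all genes to -0.18 against 0.07 as deposited. Libraries of the same group correlated at r = 0.945 to 0.978 across genes. Their squared differences averaged 35.1 to 90.8 times what read counting alone gives. Hepatocyte markers were abundant in all 6 livers, with albumin (Alb) at 15165, 17541 and 23324 FPKM in livers labelled KO, against 22394, 16087 and 15477 in livers labelled WT. Genes of other tissues were high in KO replicate 2 (skeletal muscle) and WT replicate 2 (exocrine pancreas), so counts are also given without these livers.

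Mrs2 itself (ENSMUSG00000021339, chromosome 13, 24987483 to 25020379, mm10, minus strand) did not separate the livers by label. Its level was 4.10, 5.21 and 4.21 FPKM in livers labelled KO, against 5.10, 4.10 and 5.11 in livers labelled WT. KO replicate 2 was the highest of the 6 livers and WT replicate 2 the lowest, so the groups overlapped (log2 fold change -0.07 ± 0.10, SE, limma adjusted p = 0.692). On chow the same contrast gave -0.48 ± 0.10 (limma adjusted p = 0.863), and the difference between diets was 0.41 ± 0.15 (SE, limma adjusted p = 0.21). The chow contrast called 0 of 14019 genes, so its adjusted p does not show that Mrs2 was unchanged on chow. A value summed over the gene cannot reveal a lost exon, and 2466 of its 7621 exonic bases (32.4%) overlap Gpld1 on the opposite strand, whose reads cannot be told apart where the strand of the library is not given. Because such a value can neither bear out nor contradict the labels, every direction below is one of livers labelled KO against livers labelled WT.

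Between the labels 2943 of 14019 genes were called (21.0%), with limma on log2(FPKM + 1) at an adjusted p under 0.05 and 3 livers per group. Of these 1490 (10.6% of the genes) were higher and 1453 (10.4%) lower in livers labelled KO, and the median log2 fold change of all genes was 0.07. The 3 KO values and 3 WT values did not overlap in 6014 genes (42.9%). Large changes were mostly falls: 552 of the called genes were at least 2-fold lower and 179 at least 2-fold higher, while 74 fell and 22 rose by at least 4-fold. The direction depended on the level of a gene. Among genes averaging 0.5 to 1 FPKM, 1.23% rose and 16.0% fell, whereas from 100 FPKM upward 41.0% rose and 3.23% fell. Values in brackets after a gene name are log2 fold changes of KO over WT on the log2(FPKM + 1) scale with their standard error, which understates the change of genes at low levels. Protein-coding genes were called more often (23.6% of 11620) than long noncoding genes (11% of 1021) or pseudogenes (6.8% of 838). These classes were not matched for level, on which the share of calls depended.

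The balance of rises and falls moved with the scaling. With total-read scaling 337 genes were higher and 3019 lower, and with TMM scaling 1004 were higher and 1593 lower. Leaving out KO replicate 2 and WT replicate 2 together gave 2369 calls, 1080 higher and 1289 lower. Without WT replicate 1 the number was 1354, and without KO replicate 1, KO replicate 3 or WT replicate 3 it was 1619, 1775 and 1701. In chow livers the same test called 0 genes (0.0%), with 675 at an unadjusted p under 0.05, while edgeR on the recovered reads called 0 and DESeq2 called 16.

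**Figure D1:**
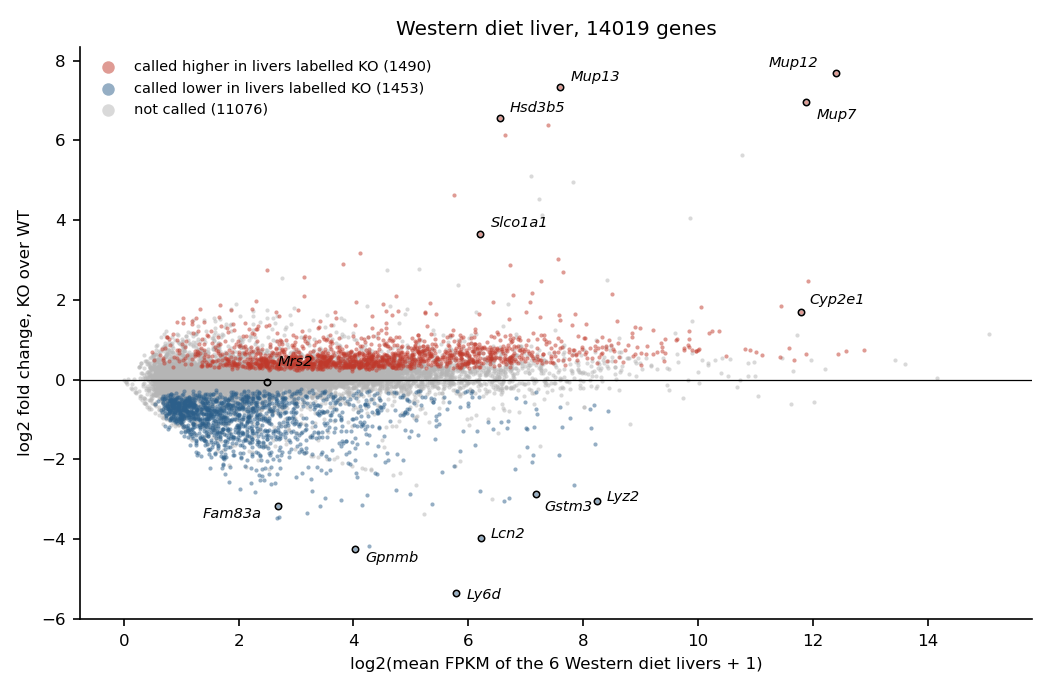
Each point is 1 of 14019 genes, by log2 of its mean FPKM plus 1 over the 6 Western diet livers (horizontal) and by its log2 fold change of livers labelled KO over livers labelled WT (vertical). The 1490 genes called higher lie mostly at high levels and the 1453 called lower mostly at low levels, and Mrs2 lies near 0.

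The macrophages that gather around fat-laden hepatocytes are called lipid-associated, and their genes fell. Gpnmb (ENSMUSG00000029816, chromosome 6, 49036546 to 49070929), a transmembrane glycoprotein of these cells, stood at 0.0731, 0.778 and 0.862 FPKM in livers labelled KO, against 34.9, 16.1 and 39.4 in livers labelled WT. All 3 livers labelled KO lay below 1 FPKM, WT replicate 2 was the lowest of its group, and the groups did not overlap (log2 fold change -4.26 ± 0.33, SE, limma adjusted p = 0.000167). Trem2, a receptor for lipids, stood at 0.225, 1.08 and 0.430 FPKM in livers labelled KO, against 12.5, 4.92 and 7.55 in livers labelled WT (-2.52 ± 0.29, SE, limma adjusted p = 0.00105). Cd63, a tetraspanin of late endosomes, had 0.840, 2.02 and 1.69 FPKM in livers labelled KO, against 24.7, 12.8 and 19.8 in livers labelled WT (-2.98 ± 0.27, SE, limma adjusted p = 0.000414). Macrophage elastase, Mmp12, with 157 of 7237 exonic bases opposite Mmp1b, had 0.0767, 1.58 and 0.188 FPKM in livers labelled KO, against 25.8, 9.71 and 11.4 in livers labelled WT (-3.36 ± 0.40, SE, limma adjusted p = 0.0012). In each of these 3 genes WT replicate 2 was nearer to the livers labelled KO than the mean of its group, though every liver labelled WT was above every liver labelled KO. Of 20 tested members 16 fell and 0 rose, with a median log2 fold change of -1.97. The other falls included the secreted phosphoprotein Spp1 (-3.04 ± 0.38), for which 309 of 1648 exonic bases are shared with Gm42793 on the same strand, and the protease inhibitor Cstb (-1.25 ± 0.14).

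Resident macrophages of the liver, the Kupffer cells, gave a split picture. The complement subunits C1qa (-1.69 ± 0.34), C1qb (-1.89 ± 0.37) and C1qc (-1.65 ± 0.34) and the lectin Cd207 (-2.34 ± 0.50) were among the 9 of 17 members that fell. That number was 4 leaving out WT replicate 1 and 5 leaving out KO replicate 1 or WT replicate 3. The defining lectin Clec4f had 65.4, 67.4 and 56.3 FPKM in livers labelled KO, against 48.5, 54.6 and 8.61 in livers labelled WT, with WT replicate 3 far below the other 5 livers and all 3 livers labelled KO above those labelled WT, and was not called (1.1 ± 0.53, SE, limma adjusted p = 0.17). Timd4, a receptor for dying cells on long-lived Kupffer cells, had 3.5, 7.71 and 4.62 FPKM in livers labelled KO, against 5.16, 7.70 and 8.34 in livers labelled WT and overlapped (-0.39 ± 0.27, SE, limma adjusted p = 0.341). Among monocyte genes 10 of 11 fell, with a median of -1.62. Of this list 11 of 14 genes reached the minimum level, which high livers labelled WT can lift a gene over. The share is thus no measure of the whole list, and with a minimum of 5 FPKM 3 of 4 fell. The lysozyme Lyz2 stood at 63.1, 56.8 and 51.5 FPKM in livers labelled KO, against 628, 233 and 764 in livers labelled WT, without overlap (-3.06 ± 0.47, SE, limma adjusted p = 0.00317). The chemokine receptors Ccr2 (-1.61 ± 0.36) and Cx3cr1 (-1.95 ± 0.24) and the adaptor Tyrobp (-2.18 ± 0.37) fell as well.

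Several lymphocyte and neutrophil genes were lower in livers labelled KO. Of the neutrophil list 5 of 12 genes reached the minimum level, and of the T and NK cell list 7 of 16. The B and plasma cell list had 10 of 12 and the antigen presentation list 9 of 13 genes that reached it. A gene that reached it through the livers labelled WT alone had to differ, so the share that fell is no measure of a whole list. The calprotectin subunits S100a8 and S100a9 of neutrophils changed by -2.36 ± 0.40 and -2.49 ± 0.51 on the log2 scale (SE). S100a9 had 3.5, 1.13 and 1.30 FPKM in livers labelled KO, against 18.8, 10.4 and 16.2 in livers labelled WT. For B and plasma cells 5 of 10 fell, among them the B cell receptor component Cd79b (-1.15 ± 0.24). The B and plasma cell list summed to 15.7, 22.1 and 26.1 FPKM in livers labelled KO, against 232, 40.1 and 73.0 FPKM in livers labelled WT. Of T and NK cell genes, the T cell receptor constant gene Trac (-1.45 ± 0.31) and Nkg7 (-1.87 ± 0.42) fell. Antigen presentation genes fell in 7 of 9 members. The invariant chain Cd74 had 55.3, 75.3 and 49.7 FPKM in livers labelled KO, against 449, 241 and 490.5 in livers labelled WT (-2.65 ± 0.64, SE, limma adjusted p = 0.017). H2-Ab1, a class II chain, was not called (-2.04 ± 1.15, SE, limma adjusted p = 0.24): its values were 8.53, 24.2 and 8.06 FPKM in livers labelled KO, against 147, 5.79 and 149 in livers labelled WT, so WT replicate 2 lay below all 3 livers labelled KO, which was not so for Cd74. H2-Eb1 had 13.9, 35.7 and 14.5 FPKM in livers labelled KO, against 252, 67.3 and 239 in livers labelled WT (-2.98 ± 0.79, SE, limma adjusted p = 0.0247), again lowest of its group in WT replicate 2. The falls in this list numbered 0 leaving out KO replicate 1, WT replicate 1 or WT replicate 3, 1 leaving out KO replicate 3 and 4 leaving out KO replicate 2.

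Signals that recruit such cells fell with them. The monocyte attractant Ccl2 had 0.209, 1.03 and 0.898 FPKM in livers labelled KO, against 7.44, 6.59 and 7.28 in livers labelled WT, and the groups did not overlap (-2.28 ± 0.25, SE, limma adjusted p = 0.000945). Of 19 chemokine and cytokine genes 14 fell and 0 rose, with a median of -1.39, including the chemokines Ccl3 (-1.49 ± 0.19) and Ccl4 (-1.39 ± 0.24) and the interleukin-1 receptor antagonist Il1rn (-1.68 ± 0.21). Of this chemokine and cytokine list 19 of 23 genes reached the minimum level. Without single livers the falls numbered 9 leaving out KO replicate 3 or WT replicate 1. Of 18 interferon-stimulated genes 1, Ifit2 (-0.80 ± 0.25), was called, or 5.56% beside 10.4% of all genes called lower, and Isg15 had 11.2, 20.6 and 11.6 FPKM in livers labelled KO, against 15.8, 12.4 and 14.1 in livers labelled WT (-0.01 ± 0.20, SE, limma adjusted p = 0.978). Of 29 lysosomal genes 13 fell and 0 rose, with a median of -0.28, and the falls numbered 7 leaving out WT replicate 3 and 8 leaving out KO replicate 1. The cysteine protease Ctss, which macrophages use in antigen processing, changed by -2.24 ± 0.39, and the hexosaminidase subunit Hexa fell by less (-0.91 ± 0.14). The membrane protein Lamp1 was not called (-0.15 ± 0.10, SE, limma adjusted p = 0.325), and Mitf, a transcription factor of lysosomal genes, was low and fell (-0.47 ± 0.13, SE, limma adjusted p = 0.0292).

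The promoters of 3 of the largest falls are shown for the factor-type letters found in them. Of the 15 largest falls 11 had a promoter in the RefSeq table (GRCm38.p6, 250 bases before to 50 after the start), as had 9606 of 14016 gene symbols tested. The letters GAGGAAGT, the type bound by the myeloid factor PU.1, were found on either strand in 2 of these 11, against 6.58% of all genes called lower, 2.37% of those called higher and 3.10% of all tested. TGANTCA, the AP-1 type, was found in another 2 of these 11, against 8.36% of genes called lower, 5.54% of those called higher and 5.15% of all tested. The E-box CACGTG was present in 8.65% of genes called lower, 9.50% of those called higher and 10.3% of all, the STAT5 type TTCNNNGAA in 7.89% of genes called lower, 6.42% of those called higher and 7.0% of all, and TATAAA in 9.68% of genes called lower, 8.53% of those called higher and 7.69% of all. Of the 15 largest rises 11 had a promoter in the table, and 0 of these held PU.1-type or AP-1-type letters. The RefSeq start lay 15282 bases from the deposited gene start for Hsd3b5, among the rises, and 8356 for Cd63, among the falls. The windows counted for these genes may therefore not be those of the deposited start. No match in the printed sequences overlapped that of another motif, and the matches describe letters and were not tested for binding. The 250 bases before the start of S100a11, a calcium-binding protein, of Mmp12 and of Spp1 follow, read 5′ to 3′ on the strand of the gene, with both kinds of letters in capitals. S100a11 lies at chr3:93520246-93520495 (plus strand), Mmp12 at chr9:7344147-7344396 (plus strand) and Spp1 at chr5:104434861-104435110 (plus strand).
S100a11: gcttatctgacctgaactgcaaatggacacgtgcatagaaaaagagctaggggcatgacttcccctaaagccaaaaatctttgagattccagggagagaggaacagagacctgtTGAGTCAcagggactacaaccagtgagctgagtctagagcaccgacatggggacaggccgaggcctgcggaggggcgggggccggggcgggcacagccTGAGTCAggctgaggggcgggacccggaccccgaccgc
Mmp12: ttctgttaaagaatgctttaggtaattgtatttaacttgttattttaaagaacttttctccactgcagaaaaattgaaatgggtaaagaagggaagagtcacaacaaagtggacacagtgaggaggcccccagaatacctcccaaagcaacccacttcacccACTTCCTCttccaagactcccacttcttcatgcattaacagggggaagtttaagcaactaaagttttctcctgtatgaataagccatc
Spp1: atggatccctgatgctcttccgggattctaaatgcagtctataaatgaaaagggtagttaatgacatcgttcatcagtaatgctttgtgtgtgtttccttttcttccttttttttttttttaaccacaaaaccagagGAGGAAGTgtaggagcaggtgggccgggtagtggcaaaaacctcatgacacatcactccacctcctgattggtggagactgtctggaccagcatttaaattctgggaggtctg
In S100a11 the AP-1-type letters begin 136 and 38 bases before the start, in Mmp12 the reverse complement of the PU.1-type letters begins 88 bases before it, and in Spp1 they begin 113 bases before it. S100a11 stood at 5.12, 10.1 and 8.0 FPKM in livers labelled KO, against 85.7, 66.3 and 67.3 in livers labelled WT (-3.12 ± 0.36, SE, limma adjusted p = 0.00111). Spp1 had 16.0, 16.4 and 28.6 FPKM in livers labelled KO, against 243, 142 and 138 in livers labelled WT. Both genes separated the groups without overlap.

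Most genes of the scar matrix fell. The fibrillar collagen Col1a1 had 0.653, 1.2 and 2.45 FPKM in livers labelled KO, against 23.0, 11.7 and 13.1 in livers labelled WT (-2.81 ± 0.37, SE, limma adjusted p = 0.00173). Col3a1, its partner in scar fibres, had 2.78, 3.72 and 6.0 FPKM in livers labelled KO, against 38.5, 21.3 and 22.1 in livers labelled WT (-2.45 ± 0.33, SE, limma adjusted p = 0.00196). In both, WT replicate 1 was the highest, the other livers labelled WT lay close together, and no liver labelled KO reached them. Of 15 collagens 12 fell, with a median of -1.46, and 1 rose: Col18a1, whose product includes endostatin and which hepatocytes also make, named after its values were seen (0.49 ± 0.15, SE, limma adjusted p = 0.0452). Matrix glycoproteins and proteoglycans fell in 17 of 19 members. The collagen-binding proteoglycan Lum stood at 3.60, 3.30 and 3.06 FPKM in livers labelled KO, against 45.4, 23.9 and 27.4 in livers labelled WT (-2.89 ± 0.29, SE, limma adjusted p = 0.000553), the basement membrane protein Nid1 changed by -2.0 ± 0.19 and the thrombospondin Thbs2 by -1.22 ± 0.13. Among proteases, inhibitors and crosslinkers 15 of 19 fell. The metalloprotease inhibitor Timp1 had 0.0893, 0.331 and 0.479 FPKM in livers labelled KO, against 5.19, 4.12 and 5.5 in livers labelled WT (-2.19 ± 0.31, SE, limma adjusted p = 0.00208), and the gelatinase Mmp2 (-1.88 ± 0.20), the crosslinker Loxl1 (-1.40 ± 0.14) and the collagen chaperone Serpinh1 (-1.55 ± 0.24) fell too. Mmp19, named after its values were seen, rose (0.46 ± 0.11, SE, limma adjusted p = 0.0177). The rises are 6.67% of the collagen list and 5.26% of the protease list, beside 10.6% of all genes. With total-read scaling 0 genes of the collagen list and 0 of the protease list were called higher. The minimum level was reached by 15 of 17 collagens, 19 of 21 glycoproteins and proteoglycans and 19 of 23 genes of the protease list. High livers labelled WT can lift a gene over it, so the shares that fell do not measure whole lists. With a minimum of 5 FPKM 4 of 6, 5 of 6 and 3 of 5 fell.

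**Figure D2:**
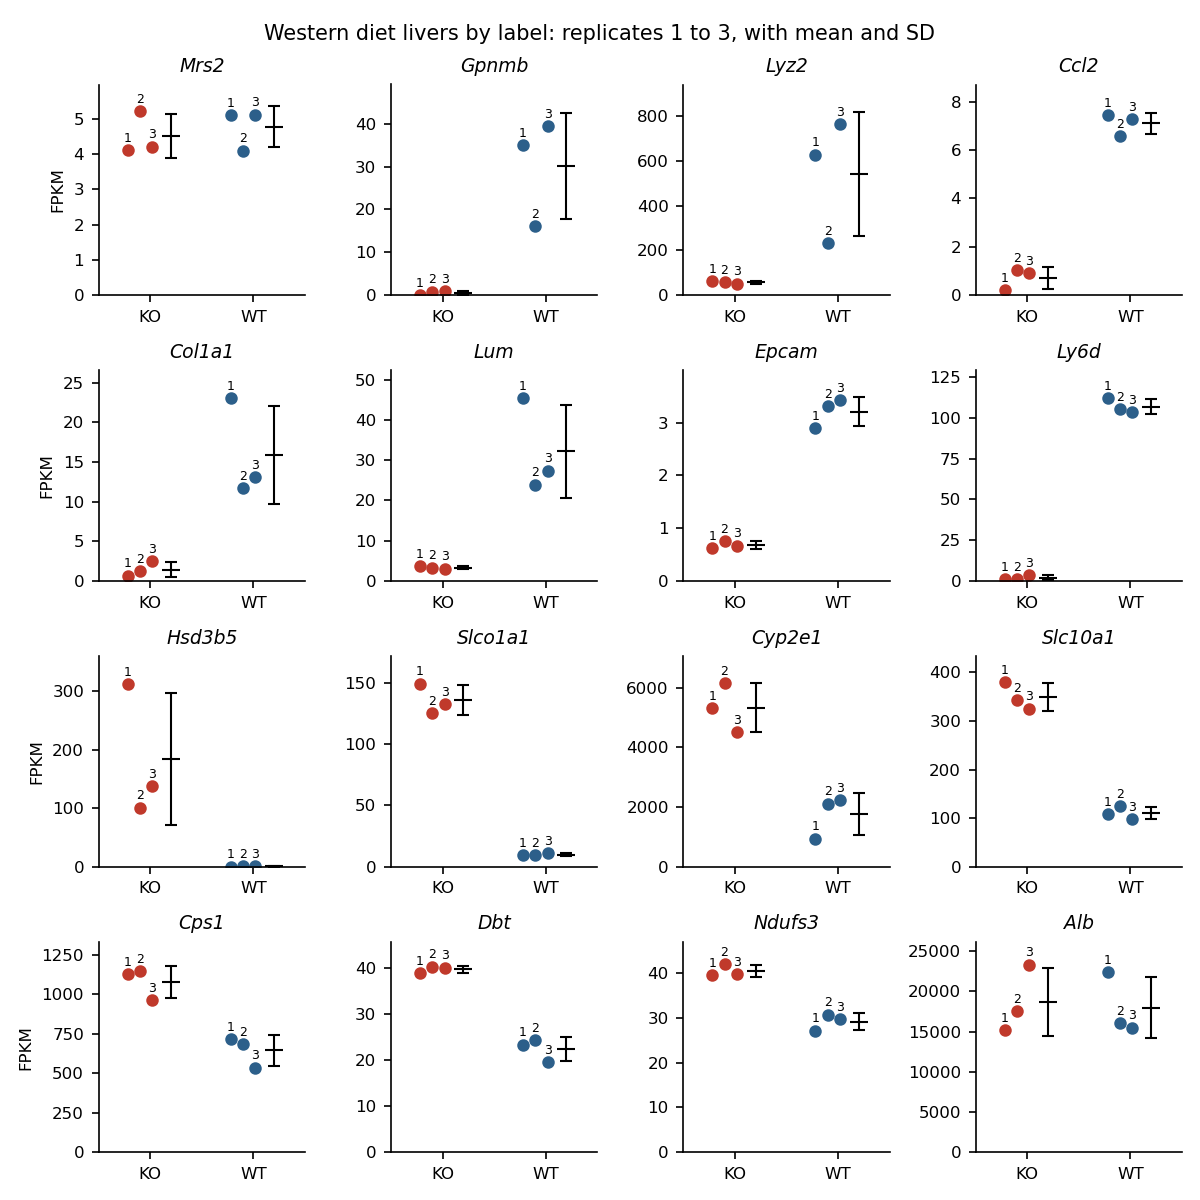
FPKM of 16 genes in the 3 livers labelled KO (red, left) and the 3 labelled WT (blue, right) on Western diet, each point a liver with its replicate number, with the mean and SD beside it, on axes that start at 0. Mrs2 and Alb overlap between the labels, while the other 14 genes do not, WT replicate 2 being the lowest WT liver in Gpnmb and Lyz2.

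Markers of the cells that make this matrix moved less uniformly. Of 19 stellate cell and myofibroblast genes 8 fell and 2 rose. The platelet-derived growth factor receptors Pdgfrb (-1.35 ± 0.11) and Pdgfra (-1.09 ± 0.14) fell, as did Lrat, which makes the retinyl esters that quiescent stellate cells store (-0.81 ± 0.18, SE, limma adjusted p = 0.0133). Smooth muscle actin, Acta2, the usual marker of myofibroblasts, had 1.25, 3.42 and 3.11 FPKM in livers labelled KO, against 9.33, 4.59 and 3.92 in livers labelled WT, with no overlap but a wide spread, and was not called (-0.93 ± 0.45, SE, limma adjusted p = 0.165). Hhip, a hedgehog-binding protein, rose (0.69 ± 0.11, SE, limma adjusted p = 0.00333), as did Ecm1, named after its values were seen (0.75 ± 0.15, SE, limma adjusted p = 0.00855). Falls in this list numbered 3 leaving out WT replicate 1 and 5 leaving out KO replicate 1 or KO replicate 2. Total-read scaling gave 2 higher and 13 lower. Endothelial genes fell in 5 (25%) and rose in 1 (5%) of 20, with a median of -0.09. The falls numbered 2 leaving out WT replicate 1 or WT replicate 3 and 3 leaving out KO replicate 1 or KO replicate 2. With total-read scaling the list gave 0 higher and 9 lower and a median of -0.39. The scavenger receptor Stab2 of sinusoids had 18.1, 12.2 and 17.1 FPKM in livers labelled KO, against 19.7, 17.0 and 17.2 in livers labelled WT (-0.19 ± 0.16, SE, limma adjusted p = 0.436), while Cd34 (-0.91 ± 0.18) and Vwf (-0.85 ± 0.17), which mark endothelium of larger vessels, fell and the sinusoidal Ehd3 rose (0.58 ± 0.16). Flt4 and Pecam1 of the same list were lower in the authors' deposited table, with log2 fold changes of -0.56 and -0.59 there. Whether the list divides by type of vessel was not tested.

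Bile duct genes fell in 7 of 8 members, with a median of -1.15. Epcam, an adhesion molecule of duct and progenitor cells, had 0.622, 0.756 and 0.668 FPKM in livers labelled KO, against 2.90, 3.31 and 3.42 in livers labelled WT, narrow in both groups and without overlap (-1.32 ± 0.11, SE, limma adjusted p = 0.000302). The keratin Krt19 had 0.470, 0.317 and 0.918 FPKM in livers labelled KO, against 1.74, 1.74 and 1.47 in livers labelled WT (-0.77 ± 0.20, SE, limma adjusted p = 0.021), and the surface protein Cd24a changed by -1.80 ± 0.18. Krt8, a keratin of hepatocytes as well as ducts, had 148, 179.9 and 177 FPKM in livers labelled KO, against 394, 453 and 334 in livers labelled WT (-1.22 ± 0.24, SE, limma adjusted p = 0.00718). The falls numbered 4 leaving out KO replicate 1, KO replicate 2 or WT replicate 1. Of the bile duct list 8 of 15 genes, and of the fetal liver and liver tumour list 8 of 18, reached the minimum level. Ly6d (ENSMUSG00000034634, chromosome 15, 74762056 to 74763620), an anchored surface protein of the Ly-6 family, gave the largest fall of all named genes, with 0.960, 0.987 and 3.66 FPKM in livers labelled KO, against 112, 105 and 103 in livers labelled WT (-5.36 ± 0.53, SE, limma adjusted p = 0.000498). The tetraspanin Tspan8 (-1.89 ± 0.16), the transcription factor Sox4 (-1.24 ± 0.13) and the hyaluronan receptor Cd44 (-1.43 ± 0.25) fell, while alpha-fetoprotein, Afp, was low in all 6 livers and not called (-0.28 ± 0.16, SE, limma adjusted p = 0.254). Cell cycle genes fell in 8 of 18, among them the proliferation marker Mki67, with 0.189, 0.183 and 0.508 FPKM in livers labelled KO, against 2.84, 1.01 and 1.24 in livers labelled WT (-1.01 ± 0.24, SE, limma adjusted p = 0.0157), and the cyclin Ccnd1 (-1.39 ± 0.35). The falls in this list of cell cycle genes numbered 2 leaving out KO replicate 1 or WT replicate 1 and 5 leaving out KO replicate 2 or WT replicate 3. Of the cell cycle list 18 of 23 genes reached the minimum level, so its share is no measure of the whole list. With a minimum of 5 FPKM 2 of 3 fell.

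Other large falls lay outside these lists or in several. Ubd, a ubiquitin-like modifier, had 0.767, 0.947 and 1.37 FPKM in livers labelled KO, against 44.5, 29.7 and 32.8 in livers labelled WT (-4.17 ± 0.62, SE, limma adjusted p = 0.0027). Lcn2, a siderophore-binding lipocalin, had 3.66, 16.9 and 5.06 FPKM in livers labelled KO, against 219, 73.3 and 121 in livers labelled WT, with KO replicate 2 and WT replicate 2 each nearest the other group (-3.98 ± 0.90, SE, limma adjusted p = 0.0133). Fam83a had 0.0751, 0.0927 and 0.778 FPKM in livers labelled KO, against 12.2, 10 and 9.38 in livers labelled WT (-3.17 ± 0.19, SE, limma adjusted p = 2.29e-05). Cib3, of a calcium- and integrin-binding family, had 0.118, 0.0365 and 0.127 FPKM in livers labelled KO, against 9.89, 10.4 and 12.7 in livers labelled WT (-3.45 ± 0.50, SE, limma adjusted p = 0.00241), and the glucan receptor Clec7a changed by -3.14 ± 0.41. The microRNA locus Mir6358 had 0 reads in all 3 livers labelled KO and 24, 18 and 10 in livers labelled WT, and since it is at 0 in a whole group its fitted value depends on the pseudocount. The 2 groups did not overlap in any of these genes.

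**Figure D3:**
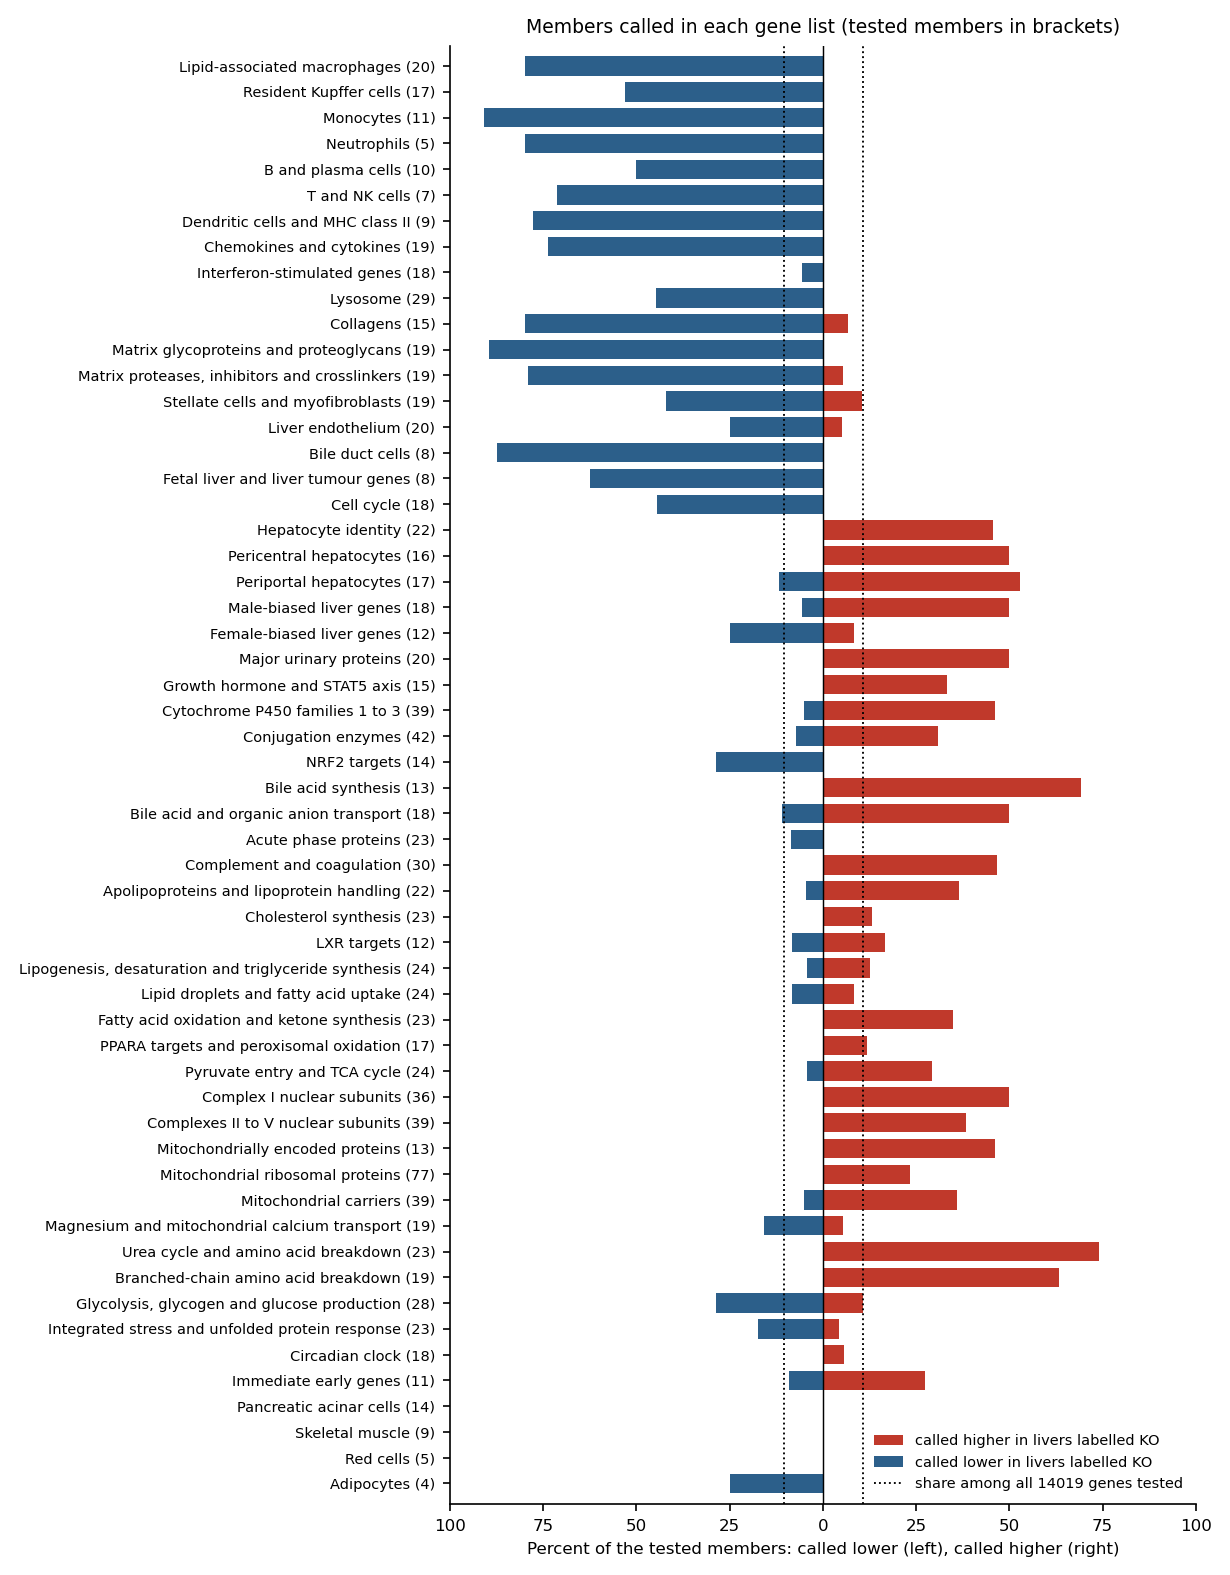
Bars give the percent of the tested members of each gene list called higher (red, to the right) or lower (blue, to the left) in livers labelled KO, with the number of tested members in brackets; dotted lines mark 10.6% and 10.4%, the shares among all genes. Immune and matrix lists reach up to 90.9% lower (Monocytes), while hepatocyte and mitochondrial lists reach up to 73.9% higher (Urea cycle and amino acid breakdown). Shares cover tested members alone, for Monocytes 11 of 14, and do not measure a whole list. Lists are not matched for level, and of all genes from 100 FPKM upward 41.0% were called higher.

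A part of the hepatocyte genes rose in the deposited scaling, and fewer did in others. Of 22 hepatocyte identity genes 10 rose (45.5%) and 0 fell, with a median of 0.59, beside 10.6% of all genes called higher. Among all genes averaging at least 100 FPKM that share was 41.0%, and from 10 to 100 FPKM it was 21.5%. The lists here and below were not matched for level. With total-read scaling the counts were 4 higher and 0 lower, and with quantile normalization 1 higher and 0 lower with a median of 0.11. Rises numbered 6 leaving out KO replicate 1, KO replicate 2 or WT replicate 3. Hpd, an enzyme of tyrosine breakdown, had 1183, 1584 and 1071 FPKM in livers labelled KO, against 546, 578 and 503 in livers labelled WT (1.22 ± 0.18, SE, limma adjusted p = 0.00241). The asialoglycoprotein receptor Asgr1 had 394, 388 and 377 FPKM in livers labelled KO, against 233, 258 and 253 in livers labelled WT (0.64 ± 0.10, SE, limma adjusted p = 0.00284), and the thyroxine carrier Ttr changed by 0.80 ± 0.17. Alb was not called (0.05 ± 0.25, SE, limma adjusted p = 0.91) and came to a log2 fold change of -0.28 with total-read scaling, and the nuclear receptor Hnf4a was not called either (0.52 ± 0.18, SE, limma adjusted p = 0.063). In the same livers the 20 genes of lipid-associated macrophages summed to 567, 617 and 688 FPKM in livers labelled KO, against 1587, 1075 and 1314 FPKM in livers labelled WT. What share this shift has in the hepatocyte values was not tested.

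In the deposited scaling genes of both zones of the liver lobule rose. Near the central vein, where drug oxidation and glutamine synthesis take place, 8 of 16 genes rose and 0 fell. Cyp2e1, the ethanol-oxidising cytochrome P450, had 5318, 6157 and 4502 FPKM in livers labelled KO, against 938, 2111 and 2219.9 in livers labelled WT, and ornithine aminotransferase, Oat, had 531, 579.7 and 542 FPKM in livers labelled KO, against 119, 328 and 203 in livers labelled WT. Both separated the groups (1.69 ± 0.40 (SE, limma adjusted p = 0.0152) and 1.46 ± 0.30). Glutamine synthetase, Glul, overlapped (0.53 ± 0.27, SE, limma adjusted p = 0.196). Near the portal vein, where glucose and urea are made, 9 of 17 rose and 2 fell. These are 52.9% and 11.8%, beside 10.6% and 10.4% of all genes. Cyp2f2 had 319, 327 and 389 FPKM in livers labelled KO, against 127, 224 and 159 in livers labelled WT (1.05 ± 0.20, SE, limma adjusted p = 0.00655), and histidase, Hal, changed by 0.83 ± 0.23. The falls, named after their values were seen, were the epithelial cadherin Cdh1 (-1.47 ± 0.40) and the cathepsin Ctsc (-0.69 ± 0.18), which leukocytes also express. With total-read scaling the periportal counts were 2 higher and 3 lower, and the pericentral counts 4 higher and 0 lower. Quantile normalization gave the same counts, with medians of 0.07 for periportal and 0.43 for pericentral genes. Without single livers the pericentral rises numbered 2 leaving out WT replicate 1, 4 leaving out KO replicate 1 or WT replicate 3 and 5 leaving out KO replicate 2 or KO replicate 3, and the periportal rises 3 leaving out KO replicate 1, KO replicate 2 or WT replicate 3 and 5 leaving out KO replicate 3 or WT replicate 1.

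Several of the largest rises were genes that growth hormone pulses keep high in male mouse liver. Hsd3b5 (ENSMUSG00000038092, chromosome 3, 98618634 to 98630252), a ketosteroid reductase of male liver, had 312, 101 and 138 FPKM in livers labelled KO, against 0.0804, 1.16 and 1.24 in livers labelled WT. KO replicate 1 was the highest, all 3 livers labelled WT were below 2 FPKM, and the log2 fold change was 6.57 ± 0.43 (SE, limma adjusted p = 3.51e-05). Slco1a1, an organic anion transporter, had 149, 125 and 133 FPKM in livers labelled KO, against 9.15, 9.35 and 11 in livers labelled WT (3.66 ± 0.21, SE, limma adjusted p = 1.43e-05). Susd4, a sushi-domain protein, had 17.0, 12.5 and 12.9 FPKM in livers labelled KO, against 1.34, 1.80 and 1.39 in livers labelled WT (2.59 ± 0.23, SE, limma adjusted p = 0.000314). Slco1a1 and Susd4 varied little within each group. Of 18 male-biased genes 9 rose and 1, Cib3, fell, with a median of 1.19, and with total-read scaling the counts were 6 higher and 1 lower. Female-biased genes rose in 1 and fell in 3 of 12, 8.33% and 25% beside 10.6% and 10.4% of all genes. Sult1e1, which sulfates oestrogen, had 2.30, 0.769 and 1.17 FPKM in livers labelled KO, against 11.3, 9.58 and 4.03 in livers labelled WT (-1.90 ± 0.36, SE, limma adjusted p = 0.00655), and Cyp2a4 (-2.61 ± 0.60) and the neurotrophin receptor Ntrk2 (-0.88 ± 0.14) fell, while Cyp2c69 rose (1.08 ± 0.18).

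Growth hormone's own axis rose in 5 of 15 members and fell in 0. The receptor Ghr had 101, 89.2 and 90.0 FPKM in livers labelled KO, against 41.0, 59.0 and 50.4 in livers labelled WT (0.90 ± 0.16, SE, limma adjusted p = 0.00477). Igf1, the growth factor that liver releases in response, had 77.8, 59.6 and 65.7 FPKM in livers labelled KO, against 45.0, 36.5 and 43.4 in livers labelled WT (0.69 ± 0.16, SE, limma adjusted p = 0.0147), and Igfals, which stabilises it in blood, changed by 1.25 ± 0.17. The prolactin receptor Prlr (1.13 ± 0.18) and the binding protein Igfbp2 (1.41 ± 0.31) rose as well. With total-read scaling the list gave 4 higher and 2 lower.

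Major urinary proteins, pheromone carriers that male liver secretes, stood out by size and by spread. The 21 genes summed to 37933, 23702 and 31501 FPKM in livers labelled KO, against 3481, 6596 and 6355 FPKM in livers labelled WT, a ratio of group means of 5.67. Of 20 tested members 10 rose and 0 fell, with a median of 4.33, and the rises numbered 6 leaving out KO replicate 1 or WT replicate 1. Mup12 had 8490.2, 7823 and 13269 FPKM in livers labelled KO, against 0.470, 2649 and 24.6 in livers labelled WT: WT replicate 2 lay far above the other livers labelled WT, and the standard error was wide (7.69 ± 2.34, SE, limma adjusted p = 0.0419). Mup13 had 837, 145 and 174 FPKM in livers labelled KO, against 0.127, 1.26 and 1.01 in livers labelled WT (7.33 ± 1.05, SE, limma adjusted p = 0.00238). Mup20, also called darcin, overlapped (-0.41 ± 1.15, SE, limma adjusted p = 0.838), with 3603, 795 and 887 FPKM in livers labelled KO, against 2853, 533 and 3926 in livers labelled WT. Reads cannot be told apart where copies have the same sequence. Of the 21 annotated transcripts compared, 13 shared over 50% of their windows of 150 bases, the read length, with another copy, up to 99.1% for Mup19, so the split between such copies is uncertain. Mup3 and Mup21 shared 0% of these windows. Mup3 had 7677, 5736 and 5897 FPKM in livers labelled KO, against 596, 1423 and 1818 in livers labelled WT (2.46 ± 0.37, SE, limma adjusted p = 0.00301). Mup21 had 294, 169 and 196 FPKM in livers labelled KO, against 24.2, 43.2 and 97.4 in livers labelled WT (2.17 ± 0.41, SE, limma adjusted p = 0.00655). Both rose without overlap.

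How alike the copies are is visible in the promoters of Mup11 and Mup15, which are shown for that reason, in RefSeq sequence of GRCm38.p6 at chr4:60662396-60662645 (minus strand) and chr4:61439705-61439954 (minus strand). The 250 bases before each start are printed 5′ to 3′, with the longest identical run, 154 bases, in capitals.
Mup11: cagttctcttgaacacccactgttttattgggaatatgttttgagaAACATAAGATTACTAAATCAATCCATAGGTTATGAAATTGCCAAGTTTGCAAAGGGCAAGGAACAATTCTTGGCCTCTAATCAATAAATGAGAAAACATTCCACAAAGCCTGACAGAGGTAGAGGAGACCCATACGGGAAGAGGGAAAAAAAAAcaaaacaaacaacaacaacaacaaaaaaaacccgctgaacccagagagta
Mup15: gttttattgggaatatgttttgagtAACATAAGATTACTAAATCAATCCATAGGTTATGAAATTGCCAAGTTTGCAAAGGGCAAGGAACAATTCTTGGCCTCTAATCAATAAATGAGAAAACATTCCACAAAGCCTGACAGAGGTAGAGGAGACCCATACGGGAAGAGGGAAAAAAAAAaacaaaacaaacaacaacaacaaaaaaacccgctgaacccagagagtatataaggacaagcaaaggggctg
None of the 5 motifs above lies in the window of either gene. Mup11 had 354, 117 and 116 FPKM in livers labelled KO, against 0.276, 1.57 and 3.37 in livers labelled WT (6.13 ± 1.26, SE, limma adjusted p = 0.00885), and Mup15 had 682, 140.1 and 162 FPKM in livers labelled KO, against 0.0673, 1.41 and 9.36 in livers labelled WT (6.39 ± 1.16, SE, limma adjusted p = 0.00569). In both, KO replicate 1 was the highest and WT replicate 1 the lowest of the 6 livers.

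Outside this family, the esterase Ces3b had 409.7, 161 and 216 FPKM in livers labelled KO, against 48.4, 45.0 and 36.9 in livers labelled WT (2.46 ± 0.32, SE, limma adjusted p = 0.00173), and the pseudogene Adh6-ps1 had 39.5, 13.0 and 17.2 FPKM in livers labelled KO, against 0.835, 0.685 and 7.17 in livers labelled WT (2.89 ± 0.57, SE, limma adjusted p = 0.00778). Both separated the groups. Of the remaining copies among the 15 largest rises, Mup7 changed by 6.95 ± 1.5 and Mup1 by 4.62 ± 1.09, both with most windows shared.

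Cytochrome P450 genes of families 1 to 3 oxidise drugs, steroids and fatty acids, and 18 of 39 rose while Cyp2a4 and Cyp1b1 (-0.98 ± 0.18) fell. These are 46.2% and 5.13%, beside 10.6% and 10.4% of all genes. The rises numbered 11 leaving out WT replicate 1, with 13 higher and 4 lower under total-read scaling. Cyp2c29 had 505, 668 and 580.0 FPKM in livers labelled KO, against 87.0, 208 and 122 in livers labelled WT (2.15 ± 0.31, SE, limma adjusted p = 0.00247), Cyp2c37 changed by 2.69 ± 0.50 and Cyp2c54 by 1.95 ± 0.31. Copies of this subfamily are similar, and the split of reads between them is uncertain. Cyp3a11, a marker of the xenobiotic receptor PXR, stood in the opposite direction with 152, 264 and 453 FPKM in livers labelled KO, against 351, 776 and 694 in livers labelled WT, overlapped and was not called (-1.12 ± 0.42, SE, limma adjusted p = 0.0862). Conjugating enzymes rose in 13 (31.0%) and fell in 3 (7.14%) of 42, and with total-read scaling the counts turned to 5 higher and 7 lower. Rises among them numbered 5 leaving out WT replicate 1 and 7 leaving out KO replicate 1 or WT replicate 3. The glucuronosyltransferase Ugt2b1 had 292, 242 and 315 FPKM in livers labelled KO, against 75.4, 122 and 104 in livers labelled WT (1.5 ± 0.20, SE, limma adjusted p = 0.00174), and the sulfotransferase Sult2a8 had 347, 317 and 314 FPKM in livers labelled KO, against 16.5, 83.0 and 42.3 in livers labelled WT (3.03 ± 0.48, SE, limma adjusted p = 0.00338). The falls were Sult1e1, the glutathione transferase Gstm3, with 18.7, 37.3 and 39.5 FPKM in livers labelled KO, against 437, 187 and 144 in livers labelled WT (-2.87 ± 0.47, SE, limma adjusted p = 0.00394), and Gsta1, named after its values were seen (-2.46 ± 0.54). Of 14 targets of the oxidant sensor NRF2 4 fell and 0 rose: the carbonyl reductase Cbr3 (-2.39 ± 0.28), the quinone reductase Nqo1 (-0.84 ± 0.21), the sulfiredoxin Srxn1 (-0.88 ± 0.15) and G6pdx of the pentose phosphate pathway (-0.96 ± 0.22). The number was 2 leaving out WT replicate 1. Gclc, which starts glutathione synthesis, overlapped (-0.08 ± 0.28, SE, limma adjusted p = 0.869).

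Bile acid genes rose at synthesis, uptake and sterol export. In synthesis 9 of 13 rose and 0 fell, with a median of 0.72, and the rises numbered 4 leaving out WT replicate 3 and 5 leaving out KO replicate 1, KO replicate 3 or WT replicate 1. Cyp7a1, which sets the rate of the classical route, was highest in KO replicate 2 (77.6, 162 and 33.2 FPKM in livers labelled KO, against 42.9, 32.9 and 31.9 in livers labelled WT) and was not called (1.05 ± 0.63, SE, limma adjusted p = 0.264). Cyp27a1, which starts the alternative route, had 364, 368 and 320.2 FPKM in livers labelled KO, against 145, 192 and 171 in livers labelled WT (1.05 ± 0.14, SE, limma adjusted p = 0.00174). Cyp7b1, which follows it there and is also male-biased, had 232, 177 and 129 FPKM in livers labelled KO, against 33.5, 39.8 and 44.3 in livers labelled WT (2.13 ± 0.29, SE, limma adjusted p = 0.00205). Cyp8b1, which makes the step to cholic acid, had 164, 129 and 275 FPKM in livers labelled KO, against 22.1, 94.1 and 77.6 in livers labelled WT (1.70 ± 0.50, SE, limma adjusted p = 0.0361), and Slc27a5, a bile acid ligase, changed by 0.91 ± 0.15. Of 18 transporters 9 rose (50.0%) and 2 fell (11.1%), beside 10.6% and 10.4% of all genes. The falls were the basolateral exporters Slc51b (-1.33 ± 0.27) and Abcc4 (-0.79 ± 0.14), both named after their values were seen. The uptake carrier Slc10a1 had 380.2, 343 and 325 FPKM in livers labelled KO, against 109, 125 and 98.4 in livers labelled WT, nearly even within each group (1.66 ± 0.20, SE, limma adjusted p = 0.00119). The sterol exporters Abcg5 (0.89 ± 0.14) and Abcg8 (1.07 ± 0.16) rose together, the organic anion transporter Slc22a7 rose (2.11 ± 0.28), and the canalicular pump Abcb11 overlapped (0.59 ± 0.32, SE, limma adjusted p = 0.219). With total-read scaling synthesis gave 4 higher and 0 lower and transport 7 higher and 2 lower.

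Complement and coagulation genes rose in 14 of 30 and fell in 0, with a median of 0.47. The rises are 46.7% of the list, beside 10.6% of all genes and 41.0% of those from 100 FPKM upward. With total-read scaling they gave 2 higher and 0 lower. Without single livers the rises numbered 6 leaving out KO replicate 1 or WT replicate 3 and 8 leaving out KO replicate 3 or WT replicate 1. C8b, of the membrane attack complex, had 169.6, 124 and 84.1 FPKM in livers labelled KO, against 50.8, 48.7 and 56.8 in livers labelled WT (1.2 ± 0.23, SE, limma adjusted p = 0.00725), and factor VII, F7, changed by 0.70 ± 0.14. Complement C3 overlapped (0.08 ± 0.21, SE, limma adjusted p = 0.826). Acute phase genes rose in 0 and fell in 2 of 23, Lcn2 and the metalloreductase Steap4 (-1.08 ± 0.26, SE, limma adjusted p = 0.0176). This is 8.7% beside 10.4% of all genes. The acute phase falls numbered 0 leaving out KO replicate 1 or WT replicate 1 and 1 leaving out KO replicate 3 or WT replicate 3. Total-read scaling gave 0 higher and 5 lower. Serum amyloid Saa1 ranged widely in both groups (44.2, 419.6 and 259 FPKM in livers labelled KO, against 62.3, 358 and 334 in livers labelled WT). Among apolipoproteins and lipoprotein genes 8 of 22 rose (36.4%) and 1 fell (4.55%), the rises numbering 5 leaving out KO replicate 3. Of all genes from 100 FPKM upward 41.0% rose. Total-read scaling gave 3 higher and 2 lower, and quantile normalization 1 higher and 1 lower with a median of -0.04. Apoa2 of high-density lipoprotein had 8835, 9570.3 and 10129 FPKM in livers labelled KO, against 5219, 6272 and 5523 in livers labelled WT (0.75 ± 0.15, SE, limma adjusted p = 0.00719), a rise that quantile normalization turned to -0.07, and Mttp, which loads lipid onto apolipoprotein B, changed by 0.63 ± 0.11. Apoa4, which rises with liver fat in mice, had 80.9, 125 and 253 FPKM in livers labelled KO, against 607, 375 and 327 in livers labelled WT (-1.61 ± 0.46, SE, limma adjusted p = 0.032). Apob was not called (0.25 ± 0.19, SE, limma adjusted p = 0.37).

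Fat synthesis and storage genes were called at shares near those of all genes, of which 10.6% rose and 10.4% fell. In lipogenesis 3 of 24 rose (1 leaving out WT replicate 3) and 1 fell, 12.5% and 4.17%, with 2 higher and 3 lower under total-read scaling. The carbohydrate-responsive factor Mlxipl (0.80 ± 0.15), the elongase Elovl2 (1.04 ± 0.24) and the triglyceride enzyme Dgat2 (0.77 ± 0.22) rose, and the desaturase Scd2 fell (-1.5 ± 0.28). Fasn, fatty acid synthase, had 59.1, 159 and 71.2 FPKM in livers labelled KO, against 117, 296 and 44.8 in livers labelled WT, and its spread in livers labelled WT covered both groups (-0.40 ± 0.62, SE, limma adjusted p = 0.69). Scd1 overlapped too (0.26 ± 0.40, SE, limma adjusted p = 0.694). Lipid droplet and uptake genes rose in 2 and fell in 2 of 24, 8.33% each way, with 1 higher and 5 lower under total-read scaling. The rises numbered 1 leaving out KO replicate 1, KO replicate 3, WT replicate 1 or WT replicate 3. The falls numbered 0 leaving out KO replicate 1, KO replicate 2 or WT replicate 3 and 1 leaving out WT replicate 1. The droplet coat protein Plin2 had 128, 112 and 267 FPKM in livers labelled KO, against 106, 208 and 162 in livers labelled WT (0.03 ± 0.34, SE, limma adjusted p = 0.959), and Cidec, which fuses droplets, had 2.95, 15.1 and 13.3 FPKM in livers labelled KO, against 14.5, 47.5 and 39.1 in livers labelled WT (-1.68 ± 0.71, SE, limma adjusted p = 0.122). Slc27a2, a fatty acid carrier and ligase, rose (1.0 ± 0.21, SE, limma adjusted p = 0.00995), as did the droplet protein Cideb (0.53 ± 0.14), while Hilpda, an inhibitor of triglyceride breakdown, fell (-0.60 ± 0.16) together with Fabp4. Cholesterol synthesis rose in 3 and fell in 0 of 23 (13.0% higher), the rises being the late-step enzymes Tm7sf2 (1.08 ± 0.16), Hsd17b7 (1.01 ± 0.21) and Ebp (0.78 ± 0.15). Of 12 LXR targets, 2 rose (16.7%), Abcg5 and Abcg8, and 1 fell (8.33%), Abcg1, the exporter that macrophages use (-1.05 ± 0.24, SE, limma adjusted p = 0.0134). Abca1 came to 0.01 ± 0.16 (SE, limma adjusted p = 0.975).

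Nuclear genes of the respiratory chain were slightly higher in livers labelled KO in the deposited scaling, and this difference was not there with total-read scaling. For complex I 18 of 36 subunits rose and 0 fell, with a median of 0.30, whereas total-read scaling gave 0 higher and 0 lower and a median of -0.02. For complexes II to V 15 of 39 rose, with a median of 0.32, against 0 higher and 0 lower and a median of -0.00324 with total-read scaling. Without single livers the complex I rises numbered 5 leaving out WT replicate 3, 6 leaving out KO replicate 3, 7 leaving out WT replicate 1, 8 leaving out KO replicate 2 and 11 leaving out KO replicate 1, and those of complexes II to V 4 leaving out KO replicate 3 or WT replicate 3, 5 leaving out KO replicate 2 or WT replicate 1 and 7 leaving out KO replicate 1. Ndufs3, of the complex I arm that reaches into the matrix, had 39.4, 41.9 and 39.6 FPKM in livers labelled KO, against 27.1, 30.7 and 29.6 in livers labelled WT (0.46 ± 0.09, SE, limma adjusted p = 0.00876). Cox5a of complex IV had 54.4, 54.6 and 53.8 FPKM in livers labelled KO, against 31.1, 40.0 and 39.2 in livers labelled WT (0.56 ± 0.12, SE, limma adjusted p = 0.0114), and Atp5o of the ATP synthase had 34.4, 35.7 and 35.8 FPKM in livers labelled KO, against 26.9, 25.7 and 26.9 in livers labelled WT (0.40 ± 0.08, SE, limma adjusted p = 0.00675). The groups did not overlap in any of these 3 genes, in which livers vary little within a label.

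Transcripts of the mitochondrial genome rose in 6 of 13 members, with a median of 0.56, and gave 0 higher and 0 lower with total-read scaling. As deposited this is 46.2%, beside 10.6% of all genes and 41.0% of those from 100 FPKM upward. The rises among these transcripts numbered 2 leaving out KO replicate 3 or WT replicate 1 and 3 leaving out KO replicate 1 or WT replicate 3. The subunit mt-Nd4 had 2199.8, 2452 and 2523 FPKM in livers labelled KO, against 1258, 1546 and 1507 in livers labelled WT (0.74 ± 0.16, SE, limma adjusted p = 0.00977), while mt-Co1 was not called (0.50 ± 0.16, SE, limma adjusted p = 0.0538). With quantile normalization mt-Nd6 came to -0.06 and mt-Nd5 to -0.25, against 0.62 and 0.56 as deposited. Mitochondrial ribosomal proteins rose in 18 of 77 and fell in 0, against 0 higher and 3 lower with total-read scaling, and the rises numbered 4 leaving out WT replicate 1, 5 leaving out KO replicate 1, 6 leaving out KO replicate 3 or WT replicate 3 and 9 leaving out KO replicate 2. Mrps7 of the small subunit had 31.3, 33.8 and 33.3 FPKM in livers labelled KO, against 19.2, 25.7 and 23.1 in livers labelled WT (0.52 ± 0.11, SE, limma adjusted p = 0.00884). In the tricarboxylic acid cycle and pyruvate entry 7 of 24 rose, such as the malate dehydrogenase Mdh1 (0.51 ± 0.12) and the pyruvate carrier subunit Mpc2 (0.56 ± 0.14). There 1 fell, the isocitrate dehydrogenase Idh2, named after its values were seen (-0.60 ± 0.19, SE, limma adjusted p = 0.0484). These are 29.2% and 4.17%, beside 10.6% and 10.4% of all genes. With total-read scaling that list gave 0 higher and 1 lower, and its rises numbered 0 leaving out WT replicate 1, 1 leaving out KO replicate 3 or WT replicate 3, 3 leaving out KO replicate 2, 4 leaving out KO replicate 1 and 11 leaving out WT replicate 2.

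Fatty acid oxidation rose in 8 of 23 members and fell in 0, against 2 higher and 0 lower with total-read scaling. The 8 rises are 34.8%, beside 10.6% of all genes and 41.0% of those from 100 FPKM upward. Rises here numbered 2 leaving out KO replicate 3, 3 leaving out WT replicate 1 or WT replicate 3 and 5 leaving out KO replicate 1 or KO replicate 2. Cpt2, which hands fatty acids over to the matrix, had 85.9, 87.1 and 93.2 FPKM in livers labelled KO, against 41.1, 59.6 and 54.0 in livers labelled WT (0.79 ± 0.14, SE, limma adjusted p = 0.00537). The matrix isomerase Eci2 changed by 0.97 ± 0.20. The entry enzyme Cpt1a was not called (0.64 ± 0.22, SE, limma adjusted p = 0.0612). Of 17 targets of the fatty acid receptor PPARA 2 rose, the thioesterase Acot1, with 10.6, 11.6 and 12.4 FPKM in livers labelled KO, against 2.27, 2.85 and 3.17 in livers labelled WT (1.74 ± 0.42, SE, limma adjusted p = 0.0168), and the transcription factor Creb3l3 (0.81 ± 0.14). These 2 are 11.8% of the list, near the 10.6% of all genes called higher. Cyp4a14, a sensitive target, was highest by far in KO replicate 3 (49.9, 47.2 and 210.3 FPKM in livers labelled KO, against 35.0, 29.3 and 43.0 in livers labelled WT) and was not called (1.14 ± 0.86, SE, limma adjusted p = 0.382).

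Carriers of the inner mitochondrial membrane rose in 14 and fell in 2 of 39, 35.9% and 5.13% beside 10.6% and 10.4% of all genes. The citrate carrier Slc25a1 (0.58 ± 0.15), the carnitine carrier Slc25a20 (0.57 ± 0.16) and the aspartate-glutamate carrier Slc25a13 (0.68 ± 0.13) rose. The ATP-magnesium and phosphate carriers Slc25a23 and Slc25a24 moved apart. Slc25a23 had 71.2, 84.0 and 72.7 FPKM in livers labelled KO, against 36.4, 46.7 and 43.7 in livers labelled WT (0.84 ± 0.13, SE, limma adjusted p = 0.00327). Slc25a24 had 0.902, 1.01 and 0.670 FPKM in livers labelled KO, against 4.70, 3.09 and 3.75 in livers labelled WT (-1.37 ± 0.16, SE, limma adjusted p = 0.00111). Both separated the groups without overlap, and with total-read scaling the list gave 4 higher and 3 lower. The other fall was Slc25a36, a pyrimidine nucleotide carrier named after its values were seen (-0.56 ± 0.14), and the rises numbered 6 leaving out KO replicate 3 or WT replicate 1 and 7 leaving out KO replicate 1 or WT replicate 3.

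Of 19 genes of magnesium transport and mitochondrial calcium uptake 1 rose and 3 fell (1 leaving out WT replicate 1), 5.26% and 15.8% of the list, beside 10.6% and 10.4% of all genes. Letm1, a cation exchanger of the inner membrane, had 10.9, 11.4 and 12.3 FPKM in livers labelled KO, against 5.57, 9.37 and 7.04 in livers labelled WT (0.61 ± 0.15, SE, limma adjusted p = 0.0185). Micu2, a gatekeeper of the calcium uniporter, had 13.2, 13.4 and 16.9 FPKM in livers labelled KO, against 25.9, 26.8 and 26.4 in livers labelled WT, even within each group (-0.83 ± 0.15, SE, limma adjusted p = 0.00541). The magnesium transporter Nipa1 (-0.69 ± 0.16) and Tusc3, of the oligosaccharyltransferase and linked to magnesium uptake, fell (-0.38 ± 0.10). The uniporter pore Mcu overlapped (0.40 ± 0.18, SE, limma adjusted p = 0.136). Of other transporters of magnesium, Slc41a1 (0.11), Trpm7 (0.14) and Cnnm4 (-0.07) were not called.

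Amino acid breakdown gave the highest share of rises of any list in the deposited scaling. With total-read scaling the major urinary proteins had a higher share (10 of 20). In the urea cycle and amino acid list 17 of 23 rose and 0 fell, with a median of 0.68, and with total-read scaling 3 higher and 0 lower. The rises numbered 10 leaving out WT replicate 3 and 11 leaving out KO replicate 1. Cps1, which starts the urea cycle in the matrix, had 1127, 1144 and 962 FPKM in livers labelled KO, against 716, 684 and 535 in livers labelled WT (0.75 ± 0.19, SE, limma adjusted p = 0.0202). Ahcy, of the methionine cycle, had 603, 718 and 555 FPKM in livers labelled KO, against 255, 325 and 307 in livers labelled WT (1.08 ± 0.20, SE, limma adjusted p = 0.00582), and Mat1a, which makes its methyl donor, changed by 0.77 ± 0.14. Branched-chain amino acid breakdown rose in 12 of 19 and fell in 0, with a median of 0.50, and with total-read scaling 5 higher and 1 lower. Here the rises numbered 5 leaving out WT replicate 1 and 7 leaving out KO replicate 2, KO replicate 3 or WT replicate 3. Dbt, the core of the dehydrogenase complex, had 38.9, 40.3 and 40.0 FPKM in livers labelled KO, against 23.4, 24.4 and 19.5 in livers labelled WT (0.80 ± 0.10, SE, limma adjusted p = 0.00155). Ppm1k, the phosphatase that activates the complex, had 26.1, 30.2 and 29.6 FPKM in livers labelled KO, against 10.2, 9.97 and 17.3 in livers labelled WT (1.18 ± 0.21, SE, limma adjusted p = 0.00532). Acadsb, an acyl-CoA dehydrogenase of isoleucine breakdown, had 32.3, 27.6 and 30.4 FPKM in livers labelled KO, against 14.9, 17.8 and 16.6 in livers labelled WT (0.84 ± 0.09, SE, limma adjusted p = 0.000813). These 3 genes did not overlap between the groups, and the complex's subunit Bckdhb did (0.19 ± 0.21, SE, limma adjusted p = 0.549).

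Sugar metabolism genes were called in both directions, the rises at a share near that of all genes. Of 28 genes 3 rose and 8 fell, 10.7% and 28.6% beside 10.6% and 10.4% of all genes. Total-read scaling gave 1 higher and 10 lower. The rises numbered 1 leaving out KO replicate 1, WT replicate 1 or WT replicate 3. The falls in sugar metabolism numbered 2 leaving out WT replicate 1, 3 leaving out KO replicate 1 or KO replicate 3 and 4 leaving out WT replicate 3. The hexokinase Hk2 had 0.292, 0.849 and 0.456 FPKM in livers labelled KO, against 3.08, 3.89 and 3.44 in livers labelled WT (-1.56 ± 0.16, SE, limma adjusted p = 0.000646), and the pyruvate kinase form Pkm had 5.09, 8.86 and 7.73 FPKM in livers labelled KO, against 27.7, 17.7 and 26.8 in livers labelled WT (-1.61 ± 0.22, SE, limma adjusted p = 0.00195). Hk3, a hexokinase of myeloid cells named after its values were seen, changed by -1.29 ± 0.31. Pck1, the committed enzyme of glucose production, had 809, 629.5 and 595 FPKM in livers labelled KO, against 328, 244 and 244 in livers labelled WT (1.31 ± 0.27, SE, limma adjusted p = 0.00868), and Pfkm (0.70 ± 0.20) and the liver glycogen phosphorylase Pygl (0.46 ± 0.13), named after their values were seen, rose too. Stress response genes rose in 1 and fell in 4 of 23, 4.35% and 17.4% beside 10.6% and 10.4% of all genes. These falls numbered 0 leaving out KO replicate 1 or WT replicate 3, 1 leaving out KO replicate 2 or KO replicate 3 and 2 leaving out WT replicate 1 or WT replicate 2. The hormone Fgf21 had 5.42, 3.63 and 9.58 FPKM in livers labelled KO, against 8.64, 16.1 and 21.8 in livers labelled WT, with KO replicate 3 above WT replicate 1 (-1.19 ± 0.33, SE, limma adjusted p = 0.0305). Atf3 (-1.31 ± 0.36) and Nupr1 (-1.11 ± 0.30), both induced by stress, fell, as did Mthfd2 of mitochondrial folate metabolism, named after its values were seen (-0.60 ± 0.19), Shmt2 of serine metabolism rose (0.55 ± 0.09), and the stress hormone Gdf15 was not called (0.99 ± 0.54, SE, limma adjusted p = 0.225). Of 11 immediate early genes 3 rose and 1 fell, 27.3% and 9.09% beside 10.6% and 10.4% of all genes. Jun (1.07 ± 0.18), Ier2 (0.81 ± 0.26) and the mRNA-decay factor Zfp36 rose. Zfp36 had 89.2, 91.6 and 104 FPKM in livers labelled KO, against 35.5, 44.8 and 43.7 in livers labelled WT (1.18 ± 0.19, SE, limma adjusted p = 0.00328). Ier3 fell (-1.45 ± 0.35) and Fos did not pass (-0.33 ± 0.32, SE, limma adjusted p = 0.503).

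KO replicate 2 stood apart in several clock genes. The activator Arntl had 1.54, 0.205 and 2.17 FPKM in livers labelled KO, against 1.1, 1.38 and 0.986 in livers labelled WT, and its target Dbp had 24.9, 67.4 and 22.7 FPKM in livers labelled KO, against 24.9, 16.1 and 29.4 in livers labelled WT. KO replicate 2 was the lowest of the 6 in Arntl and the highest in Dbp. The same liver was highest in Per3, with 2.87, 13.1 and 1.98 FPKM in livers labelled KO, against 6.47, 2.97 and 3.95 in livers labelled WT, and in Ciart, with 1.19, 7.25 and 0.715 FPKM in livers labelled KO, against 1.76, 1.04 and 1.01 in livers labelled WT, both named after their values were seen. Of 18 clock genes 1, Cry2, was called (0.48 ± 0.12, SE, limma adjusted p = 0.0205), or 5.56% beside 21.0% of all genes. The groups did not overlap in 5 of them, beside 42.9% of all genes. The repressor Nr1d1 was one, with 57.2, 43.2 and 46.9 FPKM in livers labelled KO, against 20.6, 24.2 and 37.6 in livers labelled WT (0.85 ± 0.63, SE, limma adjusted p = 0.379). Cry1, another repressor, had 3.87, 3.19 and 3.44 FPKM in livers labelled KO, against 2.29, 2.5 and 1.26 in livers labelled WT (0.60 ± 0.49, SE, limma adjusted p = 0.43). In these 2 genes, named after their values were seen, KO replicate 2 did not stand apart. The hour of dissection is not given in the labels, and the part of this liver in other results was not tested beyond the counts without it.

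Traces of other tissues lay in the same-numbered livers. The 14 acinar genes of the pancreas summed to 24.6, 15.2 and 17.3 FPKM in livers labelled KO, against 6.19, 1814 and 6.54 FPKM in livers labelled WT, so WT replicate 2 alone was high, with the protease Prss2 listed at 0 in all 3 livers labelled KO and at 0.153, 198 and 0.0759 FPKM in livers labelled WT. The 11 muscle genes summed to 6.38, 82.4 and 11.6 FPKM in livers labelled KO, against 4.22, 0.944 and 0.924 FPKM in livers labelled WT, and muscle actin Acta1 had 1.91, 27.7 and 4.05 FPKM in livers labelled KO, against 1.01, 0 and 0.0403 in livers labelled WT, highest in KO replicate 2 and not called (2.55 ± 1.59, SE, limma adjusted p = 0.289). Of the tested genes in both lists 0 were called. Red cell genes summed to 211, 297 and 567 FPKM in livers labelled KO, against 1172, 292 and 353 FPKM in livers labelled WT, highest in WT replicate 1. Among 4 tested adipocyte genes Fabp4, which macrophages also make, fell (-1.25 ± 0.38, SE, limma adjusted p = 0.0421), and Adipoq had 0.517, 1.12 and 0.308 FPKM in livers labelled KO, against 0.225, 0.314 and 0.179 in livers labelled WT. Without both livers numbered 2, macrophage genes gave 16 falls, collagens 10, male-biased genes 7 rises, complex I 10 and the urea cycle and amino acid list 12.

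**Figure D4:**
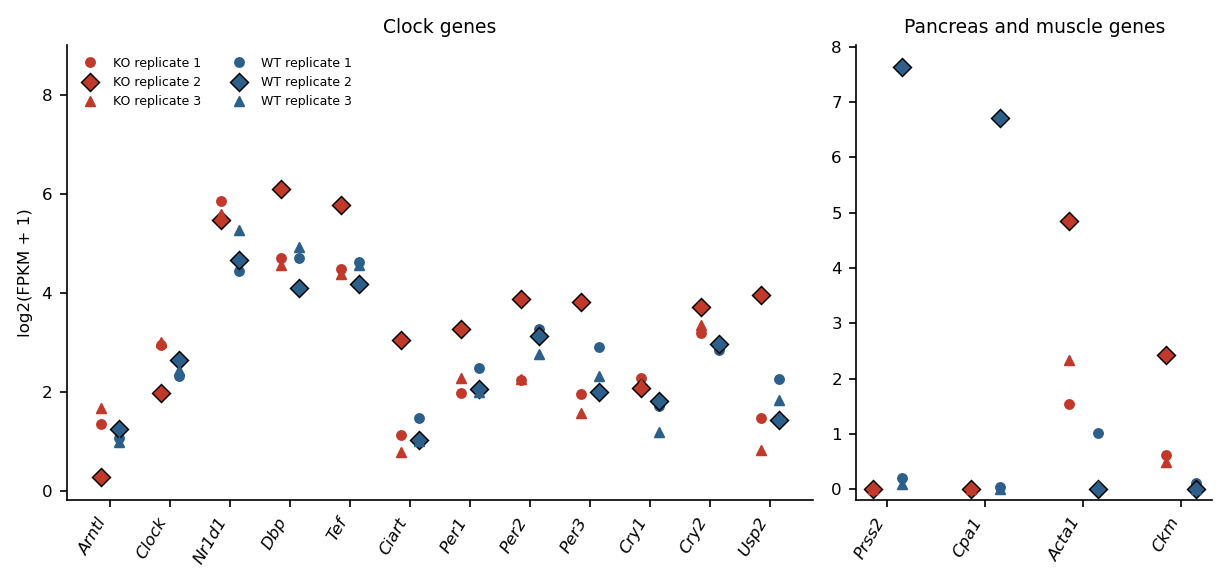
Log2 of FPKM plus 1 of clock genes (left) and of pancreas and muscle genes (right) in each Western diet liver, red for livers labelled KO and blue for livers labelled WT, with a shape for each replicate number and black outlines for number 2. KO replicate 2 stands apart in Dbp, Tef, Ciart, Per3 and Usp2 and in Acta1 and Ckm, and WT replicate 2 in Prss2 and Cpa1.

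Whether the difference between the labels was tied to the diet was tested directly, over 12 livers with no liver in both contrasts. The interaction was called in 77 of 14019 genes (0.549%). Of the 15 largest rises and 15 largest falls on Western diet, 9 passed, but all 30 were chosen by their Western diet values, which are part of the difference. The log2 fold change of Hsd3b5 was 6.57 ± 0.43 on Western diet and 0.15 ± 0.43 on chow, a difference of 6.42 ± 0.60 (SE, limma adjusted p = 0.00164). For Slco1a1 it was 3.66 ± 0.21 on Western diet and 0.59 ± 0.21 on chow (3.07 ± 0.29, SE, limma adjusted p = 0.00164). For Gpnmb it was -4.26 ± 0.33 on Western diet and -0.23 ± 0.33 on chow (-4.03 ± 0.46, SE, limma adjusted p = 0.00671). On chow Hsd3b5 had 113, 74.9 and 54.9 FPKM in livers labelled KO, against 74.9, 58.3 and 78.4 FPKM in livers labelled WT, so of the 4 groups the livers labelled WT on Western diet stood apart. Ly6d, Mir6358, Fam83a, Cd63, Lum and Susd4 passed too. None of the 8 major urinary protein genes among the 30 did, for example Mup12 with 3.94 ± 3.31 (SE, limma adjusted p = 0.588). The number of such genes was 6 among those of at least 5 FPKM and 528 with DESeq2, and 330 without WT replicate 2 against 24 without KO replicate 1.

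**Figure D5:**
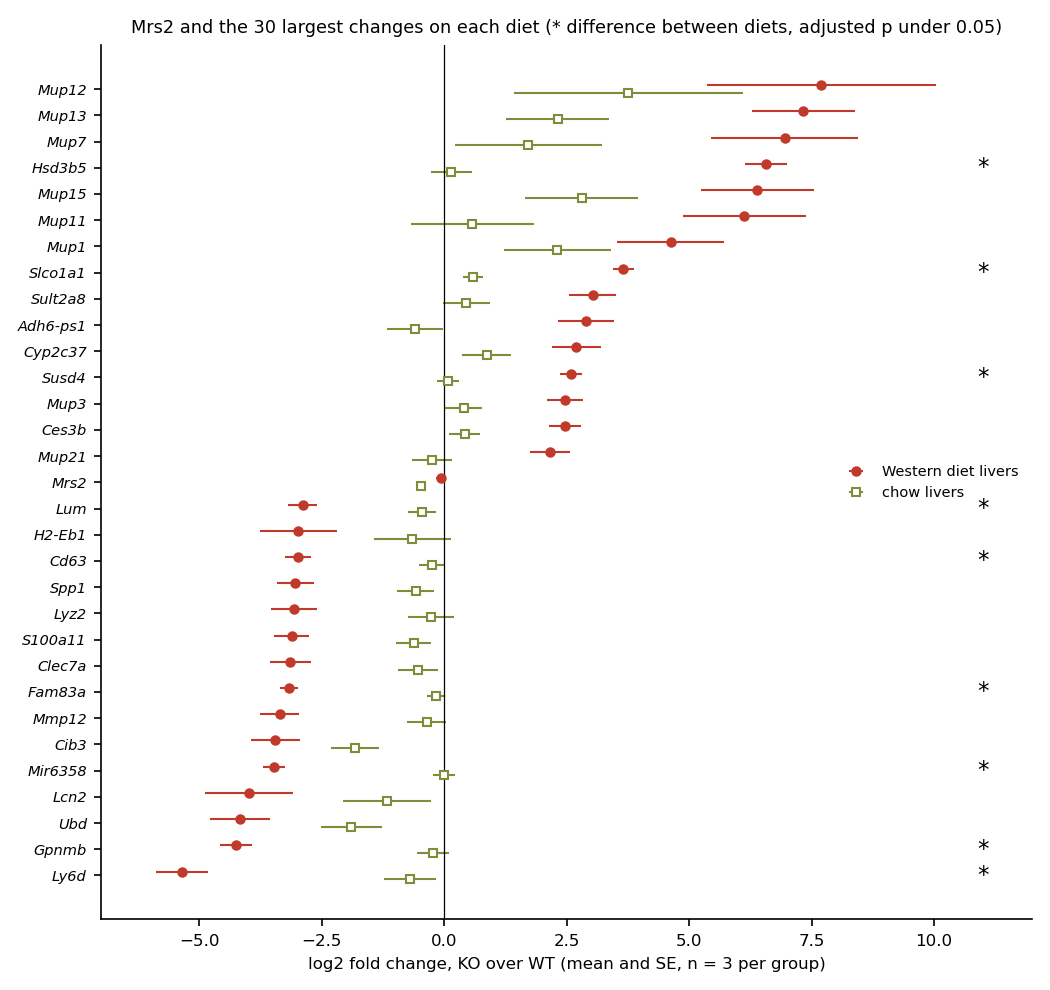
Log2 fold change of KO over WT with its standard error for Mrs2 and the 30 largest changes, in Western diet livers (filled red) and chow livers (open squares), 3 livers per group. Stars mark the 9 genes whose difference between diets passed, and the chow values lie nearer to 0 than the Western diet values for all 30, with Mrs2 the exception.

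In the authors' deposited table for this comparison, which lists 5970 genes with an unadjusted p under 0.05, 4217 had an adjusted p under 0.05, 1690 higher and 2527 lower in KO. Of these, 2591 were also called here, all in the same direction, which is 88.0% of the calls here and 61.4% of those in the authors' deposited table. Mrs2 is not among its genes. The 3 livers of a group are separate mice per the labels, and with 3 against 3 an exact permutation test of any single gene could not go below p = 0.1, so the calls rest on the variance that limma pools over genes.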

How the data were processed

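RNA of 24 mouse samples was sequenced as paired reads of 150 bases, per the labels, after selection on poly-T beads. The 12 livers (4 groups of 3 mice) entered the fit, and 6 of them were compared. Per the submitters' processing notes HISAT2 2.0.5, DESeq2 1.20.0 and the build mm10 were used, while the read counter is not given in the sources used here, nor is the strandedness. The authors deposited FPKM per gene and library, with gene positions. Their separate table of this comparison holds read counts as the authors deposited them: 40476 of these counts equalled the reads recovered from the FPKM. That table also gives log2 fold changes and p-values as deposited by the authors, and lists genes with p under 0.05 alone.

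All 254988 FPKM above 0 came out as whole reads within 0.01 reads, so the count tests edgeR 4.0.16 and DESeq2 1.42.0 were run on those reads as alternatives. The main test was limma 3.58.1 (R 4.3.3; trend and robust variance) on log2(FPKM + 1) for 14019 genes with a mean of at least 0.5 FPKM, with Benjamini-Hochberg adjustment over all of them and calls at an adjusted p under 0.05. Lists are described by counts beside those of all genes, with no test of their own. Figures were drawn with matplotlib 3.10.9, and tables were handled with pandas 2.3.3. Alternatives were another pseudocount, other filters and scalings, library weights, a replicate block and each liver left out. Named genes are Mrs2, the 15 called genes with the highest and the 15 with the lowest log2 fold change whose groups did not overlap and whose higher group averaged at least 3 FPKM, and, per list, 2 defining members and up to 4 called ones with the smallest p. Genes outside this rule are said to be named after their values were seen, and a few genes within it are not reported here. The members and lists were chosen with earlier results of these data known. A total of 28 columns of values per library or group were not used. The test was tried on simulated data, and replicates are separate mice per the labels.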

Additional observations from a re-analysis of the deposited data

Results flagged for a closer look

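Among the 30 largest changes 9 had a contrast of KO over WT that differed between Western diet and chow livers, 3 livers per group, with the difference tested in the same fit (log2, Western diet minus chow). It was 6.42 ± 0.60 (SE, limma adjusted p = 0.00164) for Hsd3b5, 3.07 ± 0.29 (SE, limma adjusted p = 0.00164) for Slco1a1 and 2.50 ± 0.32 (SE, limma adjusted p = 0.0131) for Susd4, all 3 higher in livers labelled KO on Western diet. It was -4.67 ± 0.75 (SE, limma adjusted p = 0.0367) for Ly6d, -4.03 ± 0.46 (SE, limma adjusted p = 0.00671) for Gpnmb and -3.0 ± 0.27 (SE, limma adjusted p = 0.00164) for Fam83a. For Cd63 it was -2.74 ± 0.39 (SE, limma adjusted p = 0.0183), and for Lum -2.43 ± 0.41 (SE, limma adjusted p = 0.0394). For Mir6358, with reads in the 3 livers labelled WT on Western diet and 0 in the 3 labelled KO, it was -3.47 ± 0.32 (SE, limma adjusted p = 0.00164), a value that depends on the pseudocount. All 6 of these genes were lower in livers labelled KO on Western diet, and every value shares the Western diet livers by which the genes were chosen.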

How the results depend on the processing

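Of 2943 genes called between the labels, 1490 higher and 1453 lower in livers labelled KO, and of 77 called for the difference between diets, the following numbers moved by over 1.5 times, and where no reason is given the cause was not tested. A pseudocount of 0.1 gave 13 diet differences, and no filter on low values 50. A minimum of 5 FPKM, with fewer genes tested, gave 1701 called, 373 lower and 6 diet differences. Total-read scaling gave 337 higher, 3019 lower and 214 diet differences. edgeR on the recovered reads gave 14 diet differences and DESeq2 528, while weights per library gave 4462 called, 2507 higher and 154 diet differences. Leaving out both livers numbered 2 gave 184 diet differences. Leaving out 1 liver at a time gave 1354 to 2998 called, 563 to 1497 higher, 791 to 1501 lower and 24 to 330 diet differences. Apart from the replicate block, the other settings, TMM scaling and quantile normalization among them, stayed within 1.5 times.

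With a replicate block 2565 genes were called, 1289 higher and 1276 lower, and 20 for the difference between diets. Livers of the same number did not deviate together (Pearson's r across genes of -0.03, -0.16 and -0.04), so the numbers were not taken to pair mice.

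Log2 fold changes of named genes turned sign as follows, under most settings in genes near 0. Quantile normalization also turned or brought to 0 5 called genes, such as Apoa2 (0.75 as deposited), mt-Nd6 (0.62) and mt-Nd5 (0.56). C3, not called as deposited, passed there as lower in livers labelled KO (limma adjusted p = 0.0355). Total-read scaling gave Alb -0.28, C3 -0.25, Apob -0.072, Abca1 -0.31, Scd1 -0.069, Plin2 -0.29, Cs -0.090, Pcx -0.061, Mrpl12 -0.054, Mrps15 -0.069, Bckdhb -0.13 and Egr1 -0.19. Quantile normalization gave Alb -0.29, Apoa2 -0.070, C3 -0.68, F2 -0.093, Apob -0.38, Abca1 -0.26, Scd1 -0.38, Plin2 -0.31, Pcx -0.098, mt-Nd1 -0.13, mt-Nd6 -0.060, mt-Cytb 0.00, mt-Nd5 -0.25, Bckdhb -0.076 and Arntl 0.14. TMM scaling gave Alb -0.024, Abca1 -0.064 and Plin2 -0.041, and median-of-ratios scaling Abca1 -0.032 and Plin2 -0.0080. On the recovered reads edgeR gave Alb -0.025, Abca1 -0.065 and Arntl 0.10, and DESeq2 Alb -0.033, C3 -0.0080, Abca1 -0.072 and Arntl 0.099. Library weights gave C3 -0.057, Abca1 -0.0086, Fasn 0.089, Arntl 0.18 and Egr1 -0.049. Leaving out both livers numbered 2 gave Gclc 0.31, C3 -0.11, Arntl 0.47, Dbp -0.18 and Egr1 -0.17. Leaving out 1 liver at a time gave both signs over the ranges Isg15 -0.28 to 0.13, Cyp2b9 -1.17 to 0.32, Gclc -0.37 to 0.12, Saa1 -1.02 to 0.75, Abca1 -0.025 to 0.042, C3 -0.028 to 0.19, Arntl -0.30 to 0.40, Egr1 -0.034 to 0.28, Alb -0.12 to 0.22, Plin2 -0.35 to 0.27, Hbb-bs -1.12 to 0.0060, Fasn -1.08 to 0.27, Mup20 -1.29 to 0.15 and Scd1 -0.0032 to 0.47. Of 277 named genes 225 were called, and 153 of these stayed past the threshold whichever Western diet liver was left out. Of 56 gene lists 15 had a median that turned sign among all the settings, with filters, weights and livers left out included: Interferon-stimulated genes, Liver endothelium, NRF2 targets, Acute phase proteins, Apolipoproteins and lipoprotein handling, Cholesterol synthesis, LXR targets, Lipogenesis, desaturation and triglyceride synthesis, Complex I nuclear subunits, Complexes II to V nuclear subunits, Mitochondrial ribosomal proteins, Magnesium and mitochondrial calcium transport, Glycolysis, glycogen and glucose production, Integrated stress and unfolded protein response and Red cells. Among these, Interferon-stimulated genes, Liver endothelium, NRF2 targets, Acute phase proteins, Glycolysis, glycogen and glucose production and Red cells had medians below 0 under every scaling.

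Depth limits genes near 0.5 FPKM, where few reads stand behind a value. On data simulated from these livers, 45 of 100 genes changed 2-fold and 86 of 100 changed 4-fold were called, with 6 of 13819 unchanged genes. The changed genes were drawn above a minimum number of reads, so these shares do not describe genes near 0.5 FPKM. The simulation also divided by total reads and changed far fewer genes than were called here. It therefore cannot measure how the scaling moves the calls.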
